A study of Homo sapiens with 6 samples.

Results

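The 9 human genes described here were followed as a group across every population of the series: NQO1, SLC7A11, GCLM, GCLC, TXNRD1, TXN, SRXN1, GPX4 and AIFM2. They were chosen by name as targets of the transcription factor NRF2 or as parts of the defence against ferroptosis, by a rule that sets no measured threshold but with earlier results of these data known, and all 9 are among the 16663 genes present in at least 1 of the 2 deposited count tables. Both tables list all 9. Of these, 8 were measured in every comparison, meaning a level of at least 10 CPM (UMIs of the gene, scaled to a fixed total of 1000000 UMIs per population) and 20 UMIs in the higher population, and SRXN1 was not.

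The data are droplet single-cell RNA sequencing of 2 human cancer cell lines grown under stepwise increases of a kinase inhibitor. A375, a melanoma line labelled BRAF-V600E, gave populations adapted to 30, 60, 125, 250 and 500 nM and 1, 2 and 4 µM of the BRAF inhibitor dabrafenib, together with untreated A375 cells. PC9, an epithelial lung adenocarcinoma line labelled EGFR-del, gave populations adapted to 8, 16, 32, 75, 150, 300 and 600 nM and 1.2 µM of the EGFR inhibitor osimertinib, persisters from 9 days of acute exposure to 1.2 µM, and untreated PC9 cells. Every population was 1 culture, the cultures of a line were tagged, pooled and captured together, and all cells of a line carry the same driver mutation, untreated cells included.

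NRF2 is held at low levels in unstressed cells by KEAP1, which presents it to a CUL3 ubiquitin ligase. Oxidants and electrophiles disable KEAP1, and NRF2 then pairs with small MAF proteins on antioxidant response elements, where BACH1 can compete with it as a repressor. Its targets import cystine, build glutathione, recycle thioredoxin and reduce quinones. Ferroptosis is a death caused by peroxidation of membrane lipids in the presence of iron. GPX4 detoxifies lipid peroxides with glutathione, and AIFM2, also called FSP1, protects lipids independently of GPX4 by keeping ubiquinone and vitamin K reduced. SLC7A11 is also a target of ATF4, the transcription factor of the amino acid response. Cancer cells that survive targeted drugs have been reported to lean on these defences.

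The promoter windows below show what lies in front of 4 genes with a shared dose profile in A375 (GCLM, AIFM2, TXNRD1 and TXN, all lower at 125 and 250 nM than from 500 nM) and of NQO1, whose profile differed. GPX4 was also lower at 125 and 250 nM than from 500 nM, but its windows are not printed. The windows are the 250 bases before the annotated start in RefSeq (GRCh38.p14), read 5′ to 3′ on the gene's strand. Capitals mark the letters TGACNNNGC, the core of the antioxidant response element, found on either strand. Matches on the opposite strand read as GC, 3 bases and GTCA.
GCLM, chr1:93909431-93909680, minus strand: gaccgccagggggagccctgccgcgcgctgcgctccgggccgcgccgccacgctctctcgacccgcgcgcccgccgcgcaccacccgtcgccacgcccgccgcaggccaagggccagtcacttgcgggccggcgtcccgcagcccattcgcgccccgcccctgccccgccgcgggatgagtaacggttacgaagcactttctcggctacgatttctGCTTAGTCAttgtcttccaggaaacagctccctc
AIFM2, chr10:70132826-70133075, minus strand: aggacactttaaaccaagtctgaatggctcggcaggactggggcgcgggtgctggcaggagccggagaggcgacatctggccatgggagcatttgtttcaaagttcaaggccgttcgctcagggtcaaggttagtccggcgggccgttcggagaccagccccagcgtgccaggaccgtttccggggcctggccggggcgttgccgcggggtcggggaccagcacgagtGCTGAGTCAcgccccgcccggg
TXNRD1, first start, chr12:104215529-104215778, plus strand: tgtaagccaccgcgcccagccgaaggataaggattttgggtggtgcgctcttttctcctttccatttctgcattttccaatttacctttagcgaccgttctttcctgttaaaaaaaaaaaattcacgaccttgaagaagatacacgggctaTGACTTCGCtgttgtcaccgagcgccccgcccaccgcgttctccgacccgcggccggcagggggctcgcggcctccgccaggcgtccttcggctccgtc
TXNRD1, second start, chr12:104286782-104287031, plus strand: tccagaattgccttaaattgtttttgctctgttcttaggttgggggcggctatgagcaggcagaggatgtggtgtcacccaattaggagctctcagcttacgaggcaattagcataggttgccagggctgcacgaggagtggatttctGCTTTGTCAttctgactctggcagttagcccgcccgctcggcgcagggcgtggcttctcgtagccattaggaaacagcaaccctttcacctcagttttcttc
TXN, chr9:110256508-110256757, minus strand: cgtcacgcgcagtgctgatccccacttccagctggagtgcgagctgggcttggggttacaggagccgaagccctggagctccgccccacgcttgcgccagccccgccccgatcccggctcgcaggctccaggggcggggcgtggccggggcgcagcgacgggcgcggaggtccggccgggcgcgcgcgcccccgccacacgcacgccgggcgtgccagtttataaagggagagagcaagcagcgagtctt
NQO1, chr16:69726561-69726810, minus strand: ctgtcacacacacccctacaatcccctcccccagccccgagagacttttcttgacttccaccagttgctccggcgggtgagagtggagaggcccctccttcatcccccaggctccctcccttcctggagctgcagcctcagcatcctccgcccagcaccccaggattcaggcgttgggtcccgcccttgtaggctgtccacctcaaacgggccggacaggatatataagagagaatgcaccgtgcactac

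A match stood before 4 of the 11 starts of the 8 genes that had an entry, those of GCLM, AIFM2 and TXNRD1, and in 10.9% of all 35116 promoters of the same length. The GCLM match lay 34 to 26 bases before the start and the AIFM2 match 22 to 14 bases before it. Both TXNRD1 starts had one, at 99 to 91 and at 102 to 94 bases. GCLC, TXN, NQO1, GPX4 and SRXN1 had none in this window, and SLC7A11 is named only. TXN and GPX4 thus lacked a match though their A375 levels dipped at 125 and 250 nM. GPX4 had 274 and 250 CPM at these doses and 350 to 368 CPM from 500 nM. A match is a description of the letters and not a site of binding.

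The A375 table held 8505 cells and that of PC9 held 11258 cells, with 379 to 2011 cells per A375 population and 823 to 1410 per PC9 population. Median UMIs per cell were 7337 to 9804 in A375 and 5776 to 7968 in PC9. The lines were captured and processed separately, so levels are set side by side between them without a ratio. With 1 culture per population there was no test between populations. Differences are given by size with 95% exact binomial intervals in parentheses, which cover counting error only, and a gene counted as higher or lower at 2-fold or more on the log2(CPM + 1) scale. A375 cells carried SOX10 at 208 CPM in untreated cells and 29.1 to 38.2 CPM from 1 to 4 µM, S100B and MITF were the other melanocyte markers above 10 CPM, and PMEL and MLANA stayed at or under 4.42 and 1.89 CPM in every A375 population. PC9 cells carried the 5 epithelial markers present in their table, which summed to 5878 to 7393 CPM. The list held 6, and NKX2-1 was in neither count table. In A375 the epithelial markers summed to 298 to 974 CPM, and the melanocyte markers to 151 to 740 CPM. KRT18 had 895 CPM and KRT8 78.8 CPM in A375 at 500 nM. Endothelial markers summed to at most 4.14 CPM in A375 and 7.54 CPM in PC9, and immune markers to at most 30.9 and 30.2 CPM, nearly all CD68. Fibroblast markers summed to 10.7 to 97.0 CPM in A375, highest at 30 nM. LUM had 75.7 CPM at 30 nM and 44.0 CPM at 4 µM, against 6.69 CPM in untreated cells, while COL1A1 reached at most 8.51 CPM, and their part in the results was not tested. The share of cells with at least 20% mitochondrial UMIs was 8.71% at 125 nM and 10.6% at 4 µM, against 0.796% in untreated A375 cells, and no 2-fold call on the 9 genes changed without these cells. The tables of the 2 lines shared 27 cell barcodes.

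In the 2 lines the same genes took different courses. In A375, NQO1 was below untreated cells at all 8 doses and was called lower at 4 of them, more than any other member, while GCLM passed 2-fold at 125 and 250 nM and TXN at 125 nM, both lower, and TXNRD1 was near 2-fold higher at 500 nM and 1 µM. In PC9, SLC7A11 climbed with dose to 2.15-fold at 1.2 µM and was the only member to pass 2-fold at any dose, while NQO1, GCLM, TXNRD1 and GPX4 sat 1.14-fold to 1.48-fold above untreated cells at every dose. Persisters had SLC7A11 near the untreated level. All ratios to untreated cells of a line share the same untreated culture.

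Set against all measured genes, the number of members past 2-fold was near the background in most comparisons. In A375, 2 of the 8 measured members passed at 30 nM (NQO1 and SLC7A11) and at 125 nM (GCLM and TXN), where 9.00% and 10.2% of all measured genes did. 1 passed at 250 nM (GCLM), where 9.36% of all genes did, and 1 at 1, 2 and 4 µM (NQO1), where 13.6%, 14.7% and 14.5% did. None passed at 60 nM and at 500 nM, against 2.71% and 11.4% of all genes, and 1 passed at 500 nM over 250 nM (TXNRD1), against 9.15%. In PC9, 1 of 8 passed at 150, 300 and 600 nM and 1.2 µM (SLC7A11), against 8.60%, 9.65%, 9.97% and 9.87% of all genes. None passed at 8, 16, 32 or 75 nM, where 4.92%, 6.11%, 7.20% and 8.52% of all genes did, nor in persisters over untreated cells, against 20.3%, nor in persisters over 1.2 µM, against 8.30%. None passed between the highest and the lowest dose, against 6.21% of all genes at 4 µM over 30 nM and 2.99% at 1.2 µM over 8 nM.

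The median log2 ratio of the 8 genes was lowest at 250 nM in A375, at -0.58, where that of all genes was -0.10, and it was -0.27 at 4 µM, where that of all genes was -0.17. Over the step from 250 to 500 nM it was 0.74, against -0.02 over all genes. At 1.5-fold, a threshold added after the data were seen, 5 of the 8 members were higher at 500 nM over 250 nM (SLC7A11, GCLM, TXNRD1, TXN and AIFM2) and none lower. Of all genes, 21.0% passed in either direction and 9.63% were higher. In PC9 the median was 0.24 at 1.2 µM and 0.27 in persisters, against 0.02 and -0.04 over all genes.

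**Figure D1:**
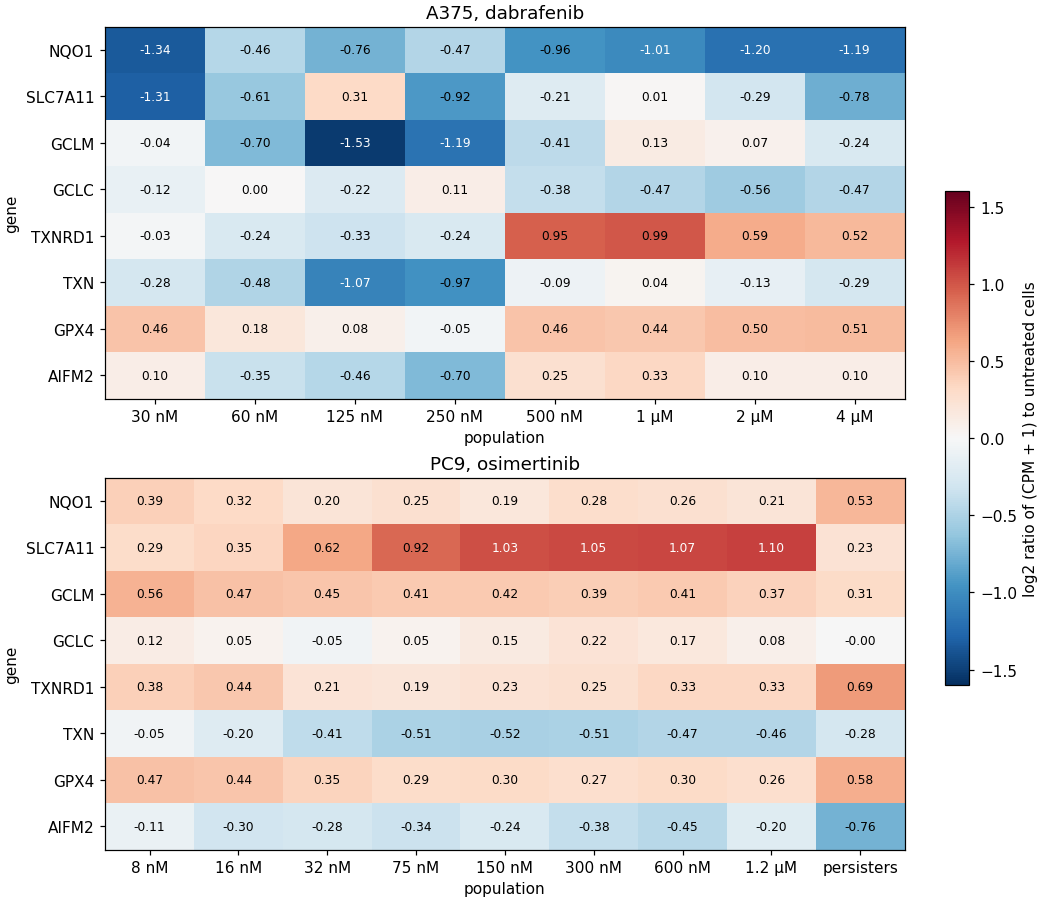
Log2 ratio of each of the 8 measured genes (rows) to untreated cells of the same line, by adapted population from low to high dose and, for PC9, the persisters (columns); colour and printed number give log2((CPM + 1) / (CPM + 1)). NQO1 is below 0 in all 8 A375 columns and above 0 in all 9 PC9 columns, and SLC7A11 climbs across the PC9 doses and stands at 0.23 in persisters.

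NQO1 (chr16:69709401-69726560) encodes NAD(P)H quinone dehydrogenase, which reduces quinones by 2 electrons and is a standard reporter of NRF2 activity. In A375 it had 719 CPM in untreated cells and, in order of dose from 30 nM to 4 µM, 283, 524, 425, 520, 370, 356, 313 and 314 CPM. The untreated culture was the highest of the 9 populations, the 30 nM culture the lowest, and the 4 highest doses lay close together. NQO1 was 2.54-fold lower at 30 nM (2.43 to 2.67), 2.02-fold lower at 1 µM, 2.30-fold lower at 2 µM and 2.29-fold lower at 4 µM (2.20 to 2.39), each against untreated cells. At 500 nM it stood 1.94-fold lower, just short of 2-fold. The 1 µM call was lost under TMM scaling, at -0.90 on the log2 scale. It was also lost when mitochondrial and ribosomal protein genes were left out of the totals, at -0.91.

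The loss was visible cell by cell. With every A375 cell thinned to 4638 UMIs, 64.0% of cells at 30 nM (59.9 to 68.0) and 71.3% at 4 µM (67.5 to 74.8) had an NQO1 UMI, against 94.0% of untreated cells (92.9 to 95.1). Without thinning the shares were 74.8% at 30 nM and 85.1% at 4 µM, against 97.9% in untreated cells, at median depths of 8755, 9716 and 9702 UMIs. The median thinned cell held 1 NQO1 UMI at 30 nM and at 4 µM, and 3 in untreated cells. No population is known to lack any of the 9 genes, so the share that free RNA alone would give was not measured.

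In PC9, NQO1 (the same reductase) had 382 CPM in untreated cells, then 499, 477, 440, 454, 435, 464, 457 and 441 CPM from 8 nM to 1.2 µM, and 550 CPM in persisters. Untreated cells were the lowest population and persisters the highest, at 1.44-fold over untreated cells (1.37 to 1.51), which did not reach 2-fold. At 3832 UMIs per cell, 86.8% of persisters had an NQO1 UMI, against 74.9% of untreated cells. Unthinned, the shares were 89.3% and 90.6% at median depths of 5776 and 7968 UMIs.

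**Figure D2:**
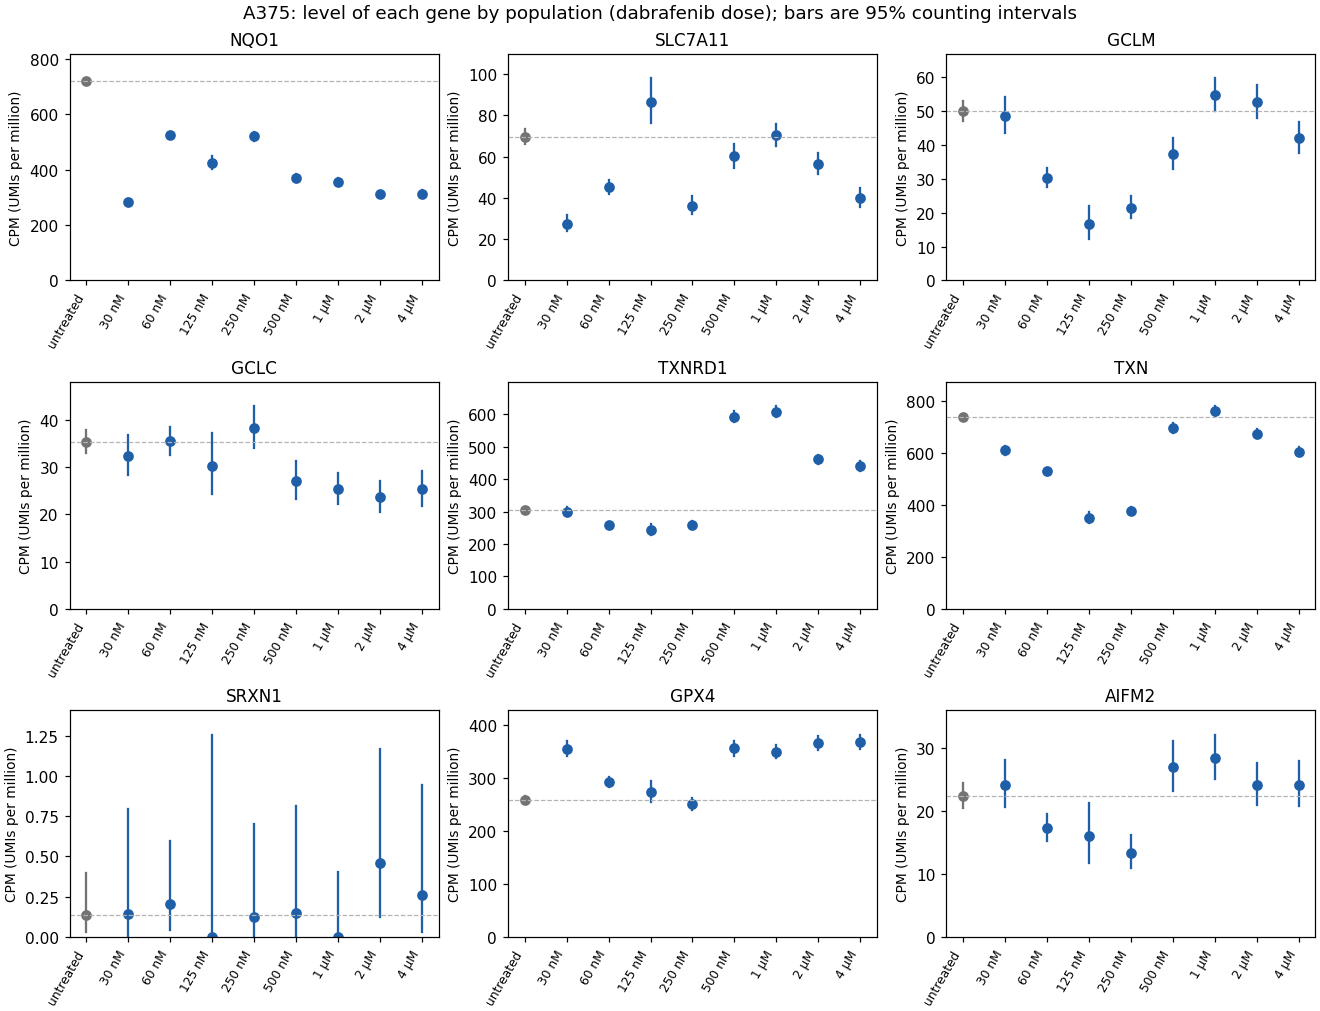
Level of each of the 9 genes in A375 (vertical axes, CPM from 0) by population, with untreated cells in grey and doses in blue from low to high; bars are 95% counting intervals and the dashed line marks untreated cells. NQO1 runs under its dashed line at every dose, GCLM and TXN dip at 125 and 250 nM, and TXNRD1 steps up to 594 CPM at 500 nM.

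The cystine and glutathione genes come next. SLC7A11 (chr4:138164097-138242349) is the transporter subunit of system xc-, which takes in cystine for glutamate. In PC9 it had 255 CPM in untreated cells, then 312, 325, 391, 483, 520, 529, 538 and 547 CPM in order of dose from 8 nM to 1.2 µM, and 299 CPM in persisters. The order of these levels was the order of the doses, most of the climb was complete by 150 nM, and the counting intervals of neighbouring populations overlapped from 150 nM upwards and between 8 and 16 nM. SLC7A11 rose 2.04-fold at 150 nM (1.94 to 2.15), 2.08-fold at 300 nM, 2.11-fold at 600 nM and 2.15-fold at 1.2 µM (2.04 to 2.26) over untreated cells.

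Other settings bear on that call. Under TMM scaling, the log2 ratio of SLC7A11 was 0.94 at 150 nM, 0.96 at 300 nM and 0.98 at 600 nM, all under the threshold, and 1.02 at 1.2 µM. In the cells that the authors' cell table lists, 37.4% of all PC9 cells and 12.9% of the untreated ones, it was 0.91 at 1.2 µM. The untreated cells outside that list had 254 CPM and those inside 261 CPM, while at 1.2 µM the cells outside had 572 CPM and those inside 490 CPM.

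Persisters had 1.83-fold less SLC7A11 than the population adapted to the same 1.2 µM (1.72 to 1.94), which is under 2-fold, and 1.17-fold more than untreated cells (1.1 to 1.25). At 3832 UMIs per cell, 59.8% of persisters had an SLC7A11 UMI (55.99 to 63.57), 81.7% of cells adapted to 1.2 µM (79.1 to 84.0) and 57.0% of untreated cells (54.1 to 59.7). Unthinned, the shares were 69.3%, 89.7% and 77.5% at median depths of 5776, 6738.5 and 7968 UMIs. The share of persisters with a UMI was thus nearest to that of untreated cells at equal depth.

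In A375 the levels of SLC7A11 followed no order by dose. It had 69.7 CPM in untreated A375 cells and, in order of dose from 30 nM to 4 µM, 27.5, 45.3, 86.8, 36.3, 60.2, 70.4, 56.7 and 40.2 CPM. The 30 nM culture was lowest and the 125 nM culture highest, with 250 nM low again between the 2 neighbouring doses. SLC7A11 fell 2.53-fold at 30 nM (2.18 to 2.96). In the cells of the authors' table this ratio was -0.98 on the log2 scale and missed 2-fold. Cells at 30 nM had 24.5 CPM on that list and 31.4 CPM off it, and untreated cells had 49.5 CPM on it and 74.5 CPM off it.

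The xc- partner of SLC7A11, SLC3A2, belongs to the list of other glutathione genes described further on. GCLC (chr6:53497341-53545101) and GCLM (chr1:93885199-93909430) are the catalytic and the modifier subunit of glutamate-cysteine ligase, the first and limiting enzyme of glutathione synthesis. Their courses differed. In A375, GCLM had 50.01 CPM in untreated cells and, in order of dose from 30 nM to 4 µM, 48.6, 30.4, 16.7, 21.4, 37.3, 54.7, 52.6 and 42.0 CPM. It fell 3.0-fold at 125 nM (2.25 to 4.08) and 2.33-fold at 250 nM (1.98 to 2.76), and from 1 µM it lay within 1.19-fold of untreated cells. The 250 nM ratio was -0.92 on the log2 scale in the cells of the authors' table and missed 2-fold there.

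GCLC had 23.6 to 38.3 CPM across A375, lowest at 2 µM and highest at 250 nM, and no population was 2-fold from untreated cells at 35.4 CPM. Counting intervals overlapped at all 8 steps of its order. Of the pair, the modifier subunit alone passed 2-fold in A375. In PC9, GCLM had 313 CPM in untreated cells, 463 at 8 nM, 406 at 1.2 µM and 388 CPM in persisters, with the other doses between 411 and 436 CPM. GCLC ranged from 174 to 210 CPM over the 10 PC9 populations, and its direction against untreated cells at 16 and 75 nM flipped with TMM scaling.

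**Figure D3:**
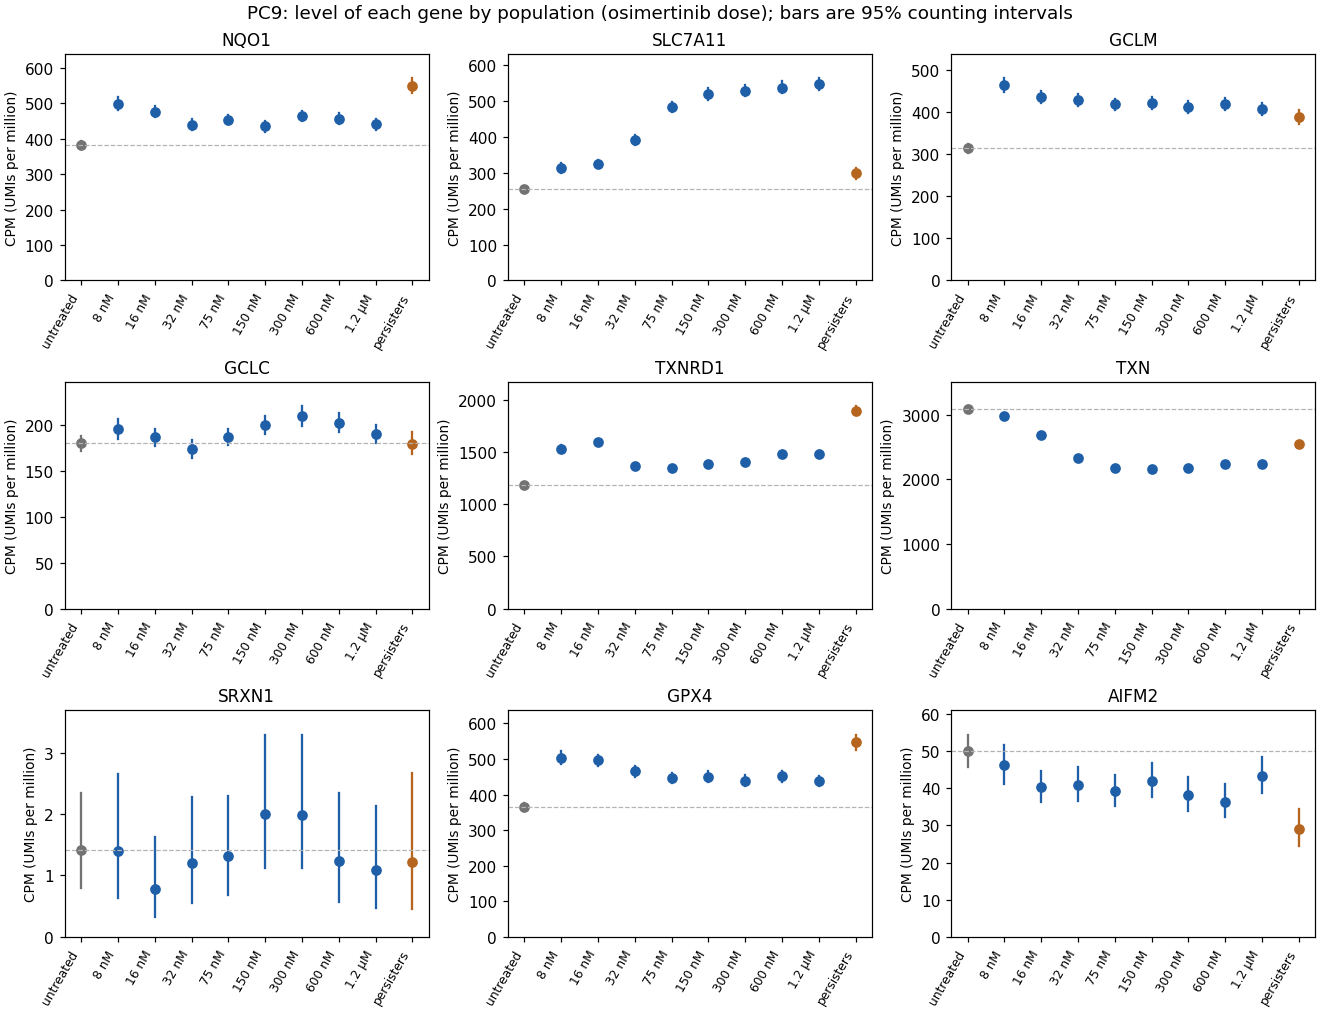
Level of each of the 9 genes in PC9 (vertical axes, CPM from 0) by population, with untreated cells in grey, doses in blue from low to high and persisters in brown; bars are 95% counting intervals and the dashed line marks untreated cells. SLC7A11 climbs to 547 CPM at 1.2 µM and stands at 299 CPM in persisters, while TXN and AIFM2 run under their dashed lines at all 8 doses (in the authors' listed cells alone, TXN at 8 nM and AIFM2 at 1.2 µM were above).

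The thioredoxin system reduces protein disulphides with electrons from NADPH. TXNRD1 (chr12:104215779-104350307), the cytosolic thioredoxin reductase and itself a selenoprotein, had 306 CPM in untreated A375 cells and, in order of dose from 30 nM to 4 µM, 300, 259, 244, 258, 594, 608, 462 and 440 CPM. The populations fell into those up to 250 nM, below the untreated level, and those from 500 nM, all above it, but at 30, 60 and 250 nM the direction flipped in the cells of the authors' table. TXNRD1 rose 2.30-fold at 500 nM over 250 nM (2.18 to 2.42). Over untreated cells it was 1.94-fold at 500 nM and 1.99-fold at 1 µM, both just under the threshold, and both passed it under TMM scaling, the 1 µM ratio at 1.104 on the log2 scale. At 4 µM it was 1.44-fold over untreated cells (1.38 to 1.498).

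At 4638 UMIs per cell, 82.3% of A375 cells at 500 nM and 87.1% at 1 µM had a TXNRD1 UMI, against 71.5% of untreated cells, and 63.3% did at 250 nM. The cells were also less alike, since the variance of TXNRD1 UMIs over their mean was 2.55 at 500 nM, against 1.19 in untreated cells, where 1 is the value of pure counting error. In PC9, TXNRD1 had 1180 CPM in untreated cells, 1534 at 8 nM, 1483 at 1.2 µM and 1898 CPM in persisters. Persisters stood 1.61-fold over untreated cells (1.57 to 1.65) and 1.28-fold over the 1.2 µM population (1.24 to 1.32), short of 2-fold in both.

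TXN (chr9:110243810-110256507), thioredoxin itself, had 738 CPM in untreated A375 cells and, in order of dose from 30 nM to 4 µM, 609, 528, 351, 377, 696, 760, 673 and 605 CPM. It fell 2.10-fold at 125 nM (1.97 to 2.24) and stood 1.96-fold lower at 250 nM, and from 500 nM it lay within 1.22-fold of untreated cells. The 125 nM call was lost when mitochondrial and ribosomal protein genes were left out of the totals, at -0.97, and in the cells of the authors' table, at -0.98. In PC9, TXN was below its untreated level of 3094 CPM at every dose, at 2981 CPM at 8 nM and 2154 to 2245 CPM from 75 nM to 1.2 µM, and at 2553 CPM in persisters. Its largest distance from untreated cells was 1.44-fold, at 150 nM, and at 8 nM the direction flipped in the cells of the authors' table.

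SRXN1 (chr20:646615-653200), the sulfiredoxin that repairs overoxidised peroxiredoxins, had 0 to 4 UMIs per A375 population and 6 to 15 per PC9 population. Its highest level was 0.456 CPM at 2 µM in A375 and 2.00 CPM at 150 nM in PC9, under the 10 CPM that counted as measured. No UMI was found at 125 nM or 1 µM, which allows up to 1.02 and 0.326 CPM. In GENCODE v29, 85.0% of the 2698 exon bases of SRXN1 are shared on the same strand with another gene, AL121758.1, and the level of SRXN1 is uncertain for that reason. AL121758.1 is in neither count table.

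GPX4 (chr19:1103994-1106779) is the selenoprotein that reduces lipid hydroperoxides in membranes. It varied least in A375, with 258 CPM in untreated cells and, in order of dose from 30 nM to 4 µM, 356, 292, 274, 250, 356, 350, 366 and 368 CPM. At 4 µM it was 1.42-fold over untreated cells (1.36 to 1.49), and at 250 nM its direction flipped between settings. In PC9 it had 365 CPM in untreated cells, 438 to 504 CPM at the 8 doses and 547 CPM in persisters, which were 1.5-fold over untreated cells (1.43 to 1.58). GPX4 thus did not reach 2-fold in any population of either line.

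AIFM2 (chr10:70112271-70132825) had 22.4 CPM in untreated A375 cells and, in order of dose from 30 nM to 4 µM, 24.1, 17.3, 16.0, 13.4, 26.9, 28.4, 24.1 and 24.1 CPM. As with TXNRD1, the step was between 250 and 500 nM, where the ratio of CPM was 2.01-fold (1.58 to 2.58) and that of CPM + 1 just under 2-fold, at 0.96 on the log2 scale. In PC9 it had 49.9 CPM in untreated cells, 36.4 to 46.1 CPM at the 8 doses and 29.1 CPM in persisters, and at 1.2 µM its direction flipped in the cells of the authors' table. Persisters were the lowest population, 1.71-fold under untreated cells (1.42 to 2.08), and 9.30% of them had an AIFM2 UMI at equal depth, against 18.0% of untreated cells. GPX4 and AIFM2 thus lay on opposite sides of untreated cells in persisters.

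**Figure D4:**
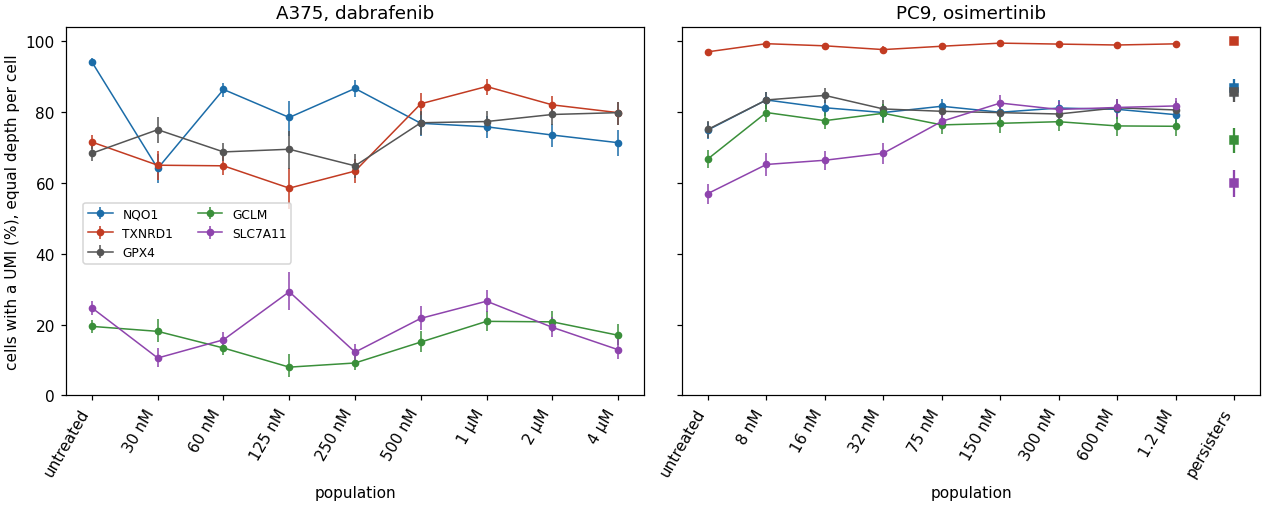
Share of cells with at least 1 UMI (vertical axis, percent) of NQO1, TXNRD1, GPX4, GCLM and SLC7A11 by population, after thinning every cell to 4638 UMIs in A375 (left) or 3832 in PC9 (right); circles are untreated cells and doses from low to high, squares are PC9 persisters, and bars are 95% exact binomial intervals. NQO1 drops to 64.0% at 30 nM in A375, and SLC7A11 reaches 81.7% at 1.2 µM and stands at 59.8% in PC9 persisters.

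Subsets of cells differed in these genes within a culture, going by the clusters the authors assigned to the cells of their table, which were formed from the same expression data and are given as a description. In the 60 nM A375 culture, 409 cells of cluster 1 had 646 CPM of NQO1, 260 cells of cluster 3 had 228 CPM and 126 cells of cluster 4 had 388 CPM. The same 3 groups had 221, 221 and 458 CPM of TXNRD1 and 225, 343 and 545 CPM of GPX4. Cluster 3 of this culture was thus close in NQO1 to the same cluster at 30 nM, 236 CPM in 373 cells. At 30 nM, 60 cells of cluster 4 had 566 CPM of TXNRD1 and 813 CPM of TXN, and the 373 of cluster 3 had 216 and 442 CPM.

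At 125 nM, 175 cells of cluster 1 had 98.2 CPM of SLC7A11 and 60 cells of cluster 2 had 27.2 CPM. At 500 nM, 107 cells of cluster 2 had 198 CPM of TXNRD1 and 296 CPM of TXN, close to the 228 and 319 CPM of 574 cells of that cluster at 250 nM. The 177 cells of cluster 6 and 116 cells of cluster 7 at 500 nM had 677 and 628 CPM of TXNRD1, and 52 cells of cluster 3 had 376 CPM. Among the listed cells at 500 nM, clusters 6 and 7 thus had the higher TXNRD1 levels, and the cells of cluster 2 had about the level of the dose below. The 185 cells of this culture outside the list, which have no cluster, had 682 CPM of TXNRD1, and the 493 listed cells had 543 CPM.

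In the PC9 culture at 1.2 µM, 153 cells of cluster 3 had 589 CPM of SLC7A11 and 60.5 CPM of AIFM2, and 226 cells of cluster 4 had 438 and 35.2 CPM. Both clusters were above the 255 CPM of SLC7A11 of the whole untreated culture. At 75 nM, 106 cells of cluster 2 had 343 CPM of SLC7A11 and 686 CPM of GCLM, and 205 cells of cluster 3 had 494 and 454 CPM. The 2 genes thus ranked these 2 clusters, which hold only part of the 505 listed cells of the culture, in opposite order.

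Genes of the same profile were sought for each member with at least a 2-fold range, by Pearson r of log2(CPM + 1) over the 9 A375 or 10 PC9 populations. These points share 1 capture per line and some genes follow depth, so r is a description. In A375, NQO1 was most like HIST1H1D (r = 0.97), SNX30 (0.96) and IGF2BP3 (0.96) among 2423 candidates. SLC7A11 was most like IARS (0.94), GRB10 (0.90) and AARS (0.88), of which IARS and AARS are aminoacyl-tRNA synthetases. GCLM, TXN and AIFM2 were like one another, with r of 0.95 between GCLM and TXN and 0.91 between TXN and AIFM2, and NQO1 had r of -0.20 with TXN.

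The 3 genes most like GCLM were C20orf27 (0.97), RNF26 (0.97) and HRAS (0.96), those most like TXN were PDP1, COTL1 and C20orf27 (0.99 each), and those most like AIFM2 were LASP1 (0.99), CRIM1 (0.98) and TMSB10 (0.97). TXNRD1 was most like RBCK1 (0.97), MKNK2 (0.96) and ARHGAP44 (0.95). In PC9 only SLC7A11 had a 2-fold range among the measured members, and SLC26A2 (0.99), PNPLA3 (0.98) and PPME1 (0.97) were most like it among 1977 candidates.

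The ATF4 list, whose pathway also drives SLC7A11, had no single direction across A375 doses. Of 12 genes on a list of ATF4 and its targets, 5 of the 11 measured were higher at 125 nM and none lower, 4 of 12 were higher and none lower at 1 µM, and none of 10 was called at 4 µM, where 10.2%, 13.6% and 14.5% of all genes passed. At 60 nM 2 of 10 were lower and none higher, and at 250 nM 1 of 10 was lower and none higher, against 2.71% and 9.36% of all genes. The list's median log2 ratio was -0.45 at 60 nM, 0.69 at 125 nM, -0.58 at 250 nM, 0.79 at 1 µM and -0.11 at 4 µM, against -0.06, -0.09, -0.10, -0.18 and -0.17 over all genes. SESN2, which restrains growth signalling on amino acid shortage, had 97.3 CPM at 125 nM and 60.7 CPM at 1 µM, against 22.3 CPM in untreated cells. ASNS, asparagine synthetase, had 52.7 CPM in untreated cells and, in order of dose from 30 nM to 4 µM, 35.5, 35.5, 113, 43.6, 88.4, 114, 92.3 and 52.1 CPM. SLC7A11 and ASNS were thus both low at 30 and 250 nM and both high at 125 nM, with r of 0.81 over the 9 populations, the highest of the list, whose other genes had r from 0.13 (VLDLR) to 0.80 (PHGDH). In PC9, r with ASNS was 0.81 over 10 populations, again the highest of the list, and the other genes had r from -0.01 (PSAT1) to 0.76 (SESN2). In PC9 ASNS had 22.5 CPM at 600 nM and 8.35 CPM in persisters, against 10.6 CPM in untreated cells. Of the list, 1 of 11 measured genes was higher in PC9 at 1.2 µM (VLDLR) and none lower, against 9.87% of all genes. In persisters 2 of 11 were higher (VLDLR and DDIT3) and 1 lower (PSAT1, of serine synthesis), against 20.3% of all genes. The list's median was 0.36 at 1.2 µM and -0.31 in persisters.

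**Figure D5:**
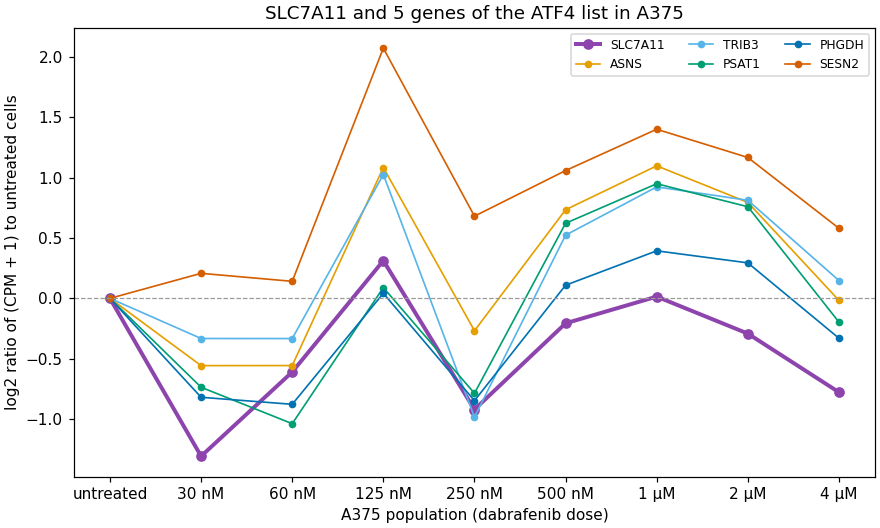
Log2 ratio of (CPM + 1) to untreated A375 cells (vertical axis) of SLC7A11 (thick line) and 5 genes of the ATF4 list, picked for the plot after their values were seen, by dabrafenib dose from low to high. SLC7A11, ASNS, TRIB3, PSAT1 and PHGDH all stand higher at 125 nM than at 60 and 250 nM, and SLC7A11 ends at -0.78 at 4 µM.

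Most regulators of NRF2 stayed within 2-fold of untreated cells. NFE2L2, which encodes NRF2, had 145 CPM at 4 µM, against 143 CPM in untreated A375 cells, and KEAP1 had 35.5 and 34.5 CPM. NFE2L2 was highest at 125 nM, at 198 CPM, where GCLM was lowest, and the 2 genes had r of -0.99 over the 9 A375 populations. Of 11 measured genes of the list, BACH1 and GSK3B were lower at 4 µM and none higher, with a median log2 ratio of -0.22, against -0.17 over all genes. Of all genes, 14.5% passed 2-fold there in either direction. BACH1, the repressor, had 75.3 CPM at 4 µM, against 177 CPM in untreated cells, 2.36-fold lower (2.16 to 2.58). GSK3B was at the threshold, at 177 CPM in 4 µM cells, against 354 CPM in untreated cells, and was not called under 3 of 6 settings. BACH1 had 252.5 CPM at 125 nM, its highest level, and TXNRD1 had its lowest there, with r of -0.86 between them. BACH1 had r of -0.80 with AIFM2, -0.75 with GCLM and -0.685 with TXN, but 0.22 with SLC7A11 and 0.735 with NQO1. TXNRD1 had similar r with GSK3B (-0.78), MAFF (-0.77) and CUL3 (-0.76). A role of BACH1 in these levels was not tested.

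In PC9 none of the 12 regulators was called at 1.2 µM and 1 was in persisters, against 9.87% and 20.3% of all genes. The list's medians were 0.15 and 0.18. SQSTM1, the autophagy receptor that binds KEAP1, had 681 CPM at 1.2 µM and 855 CPM in persisters, against 361 CPM in untreated cells, and was higher in persisters at 2.37-fold (2.27 to 2.48). NFE2L2 had 307 CPM in persisters, against 190 CPM in untreated cells, which is 1.62-fold and under the threshold. BACH1 had 78.2 CPM in persisters and 94.1 CPM at 1.2 µM, against 93.9 CPM in untreated cells.

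At the top doses and in persisters, the share of other NRF2 targets past 2-fold in either direction was near that of all genes. At 4 µM in A375, 4 of 23 measured targets were higher and none lower, with a median log2 ratio of -0.00. Of all genes, 14.5% passed there in either direction and 5.59% were higher. At 500 nM over 250 nM the share was larger, with 6 of 23 targets higher and none lower and a median of 0.47. Over this step 9.15% of all genes passed in either direction and 4.58% were higher. The haem oxygenase HMOX1 had 33.5 CPM at 4 µM, against 10.6 CPM in untreated cells, 3.16-fold (2.64 to 3.79). The iron store FTH1 had 15450 CPM at 4 µM, against 4477 CPM, 3.45-fold (3.42 to 3.48). ABCC3, a conjugate exporter, was 4.20-fold higher (3.72 to 4.74) and BLVRB, a biliverdin reductase, 2.27-fold higher (2.07 to 2.48). FTH1 and FTL have many near-identical pseudogene copies, which makes their counts uncertain. HMOX1, FTH1, ABCC3 and BLVRB were thus above untreated cells in the culture where NQO1 was 2.29-fold lower.

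In PC9 at 1.2 µM, 2 of 24 measured targets were higher, HMOX1 at 3.03-fold (2.35 to 3.92) and the ferritin light chain FTL at 2.18-fold (2.16 to 2.20), and 1 was lower, UGDH at 2.08-fold. Of all genes, 9.87% passed at 1.2 µM in either direction. In persisters 4 of the 24 targets were higher and 1 lower, against 20.3% of all genes. IDH1, a source of NADPH, was 3.14-fold higher (2.57 to 3.84), FTL 2.77-fold, the glutathione transferase GSTM3 2.68-fold and FTH1 2.27-fold, and the exporter ABCC2 was 2.53-fold lower. At 1.2 µM and in persisters the medians of this list were 0.35 and 0.39, against 0.02 and -0.04 over all genes.

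Of the other glutathione and cystine genes, 2 of 11 measured were higher and none lower at 4 µM in A375, with a median of 0.12. Of all genes, 14.5% passed there in either direction. The 2 were the membrane-bound transferases MGST1 at 3.80-fold (3.65 to 3.96) and MGST3 at 2.43-fold (2.30 to 2.56). In PC9 at 1.2 µM 2 of 11 were higher, CTH of the transsulphuration pathway, with 20.3 CPM against 4.74 CPM in untreated cells, and the glutaredoxin GLRX at 2.14-fold, with a list median of 0.23. Of all genes, 9.87% passed at 1.2 µM in either direction. The GLRX call at 1.2 µM was lost under TMM scaling and in the cells of the authors' table. SLC3A2, the chain that carries SLC7A11 to the membrane, was 1.85-fold over untreated cells at 1.2 µM, under the threshold. In persisters GLRX was 4.71-fold higher (4.10 to 5.40), while GGCT, of glutathione breakdown, was 2.20-fold lower and the glutamine transporter SLC1A5 2.46-fold lower. With 1 of 10 measured genes higher and 2 lower, the persister calls stood against 20.3% of all genes.

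Among peroxidases and thioredoxin relatives, 4 of 16 measured were higher at 4 µM in A375 and none lower, with a median of 0.19. Of all genes, 14.5% passed there in either direction and 5.59% were higher. TXNIP, the inhibitor that binds thioredoxin, had 452 CPM at 4 µM, against 83.0 CPM in untreated cells, 5.45-fold (5.15 to 5.77), the mitochondrial dismutase SOD2 was 2.90-fold higher and the methionine sulphoxide reductase MSRB2 2.42-fold higher. In PC9 at 1.2 µM none of 16 was higher and TXNRD2 was lower, at 2.48-fold, with a median of -0.21. In persisters TXNIP was 2.03-fold higher, and TXNRD2 and MSRA were lower, with a median of 0.04. The TXNIP call was lost under TMM scaling and when mitochondrial and ribosomal protein genes were left out of the totals. At 1.2 µM 9.87% of all genes passed in either direction, and in persisters 20.3% did.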

How the data were processed

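The authors deposited 2 gene-by-cell tables of unnormalized UMI counts, described as expression counts per the labels and made with Cell Ranger 7.0.0 on GRCh38 per the submitters' processing notes. A smaller set, 5059 cells of A375 (59.5%) and 4208 of PC9 (37.4%), has a deposited annotation of total counts, mitochondrial percent and cluster number, per the file headers. How it was chosen is not given in the sources used here. All cells were used, and the end of each cell's name gave its population, with T05 taken as the labels' T0500. The 2 A375 sequencing runs cannot be told apart in the cell names.

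CPM is the summed UMIs of a gene over all UMIs of that population, scaled to 1000000. Ratios are log2(CPM + 1), and folds are ratios of CPM with 95% exact binomial intervals. No doublet caller was run. For shares of cells with a UMI, cells were thinned to 4638 UMIs in A375 and 3832 in PC9, and 45 to 202 shallower cells per A375 population and 77 to 174 per PC9 population were left out. Where a gene had no UMI, the upper limit given is that of 3 counts. The 9 genes, the lists and the comparisons were chosen with earlier results of these data known. Of other lists, up to 4 measured genes per list and line with the largest ratio to untreated cells at the top dose or in persisters, at 25 CPM or more, were named. Genes named at lower levels or doses, such as CTH, TXNRD2 and SESN2, were chosen after their values were seen. Alternatives were TMM scaling, other totals, per-cell means, the authors' listed cells, removal of deep or high-mitochondrial cells, and other pseudocounts, filters and thresholds. Ratios, calls and intervals were tested on simulated counts. Promoters and gene positions came from RefSeq GRCh38.p14, exon overlaps from GENCODE v29. Calculations used Python 3.11.15, numpy 2.4.6, scipy 1.17.1, pandas 2.3.3, R 4.3.3 and edgeR 4.0.16 (TMM only).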

Additional observations from a re-analysis of the deposited data

Results flagged for a closer look

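NQO1 was singled out because every adapted A375 population lay below untreated A375 cells and every adapted PC9 population lay above untreated PC9 cells. The highest of the 8 log2 ratios in A375 was -0.46, at 60 nM, and the lowest of the 8 in PC9 was 0.19, at 150 nM. The difference was not tested, since each population was 1 culture and the 8 ratios of a line share 1 untreated culture.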

How the results depend on the processing

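No paired analysis was possible because each population was 1 culture in a pooled library and the cell names carry no run or replicate number. For the same reason no replicate could be left out. The count of members past 2-fold was recomputed for 30 nM and 4 µM over untreated cells and 500 over 250 nM in A375, and for 8 nM, 1.2 µM and persisters over untreated cells and persisters over 1.2 µM in PC9. In these 7 it kept its value under TMM scaling, totals without mitochondrial and ribosomal protein genes, a pseudocount of 5 CPM, a minimum of 50 CPM, no filter, and without cells at 20% mitochondrial UMIs. For 500 nM over 250 nM it was 2 in place of 1, with AIFM2 added, as a mean of per-cell CPM, in the authors' listed cells and without cells above 2 times the median UMIs. In the listed cells it was 1 in place of 2 at 30 nM and 0 in place of 1 at 1.2 µM, both through SLC7A11. At 3-fold it was 0 at 30 nM, at 4 µM, for 500 nM over 250 nM and at 1.2 µM. At 1.5-fold, added after the data were seen, it was 2 at 4 µM, 5 for 500 nM over 250 nM, 2 in persisters over untreated cells and 1 in persisters over 1.2 µM. Outside these 7, TMM scaling took SLC7A11 under 2-fold at 150, 300 and 600 nM in PC9. In A375 it took NQO1 under 2-fold at 1 µM and TXNRD1 past it at 500 nM and 1 µM. The cause of these moves was not tested. TMM scaling raised every log2 ratio to untreated cells by 0.12 at 1 µM and 0.14 at 2 µM in A375 and moved those of PC9 doses by -0.07 to -0.10. No called log2 ratio changed sign in the 10 comparisons tested. Of 80 log2 ratios, 48 left their counting interval in the listed cells, 20 under TMM scaling, 14 without mitochondrial and ribosomal genes, 13 as per-cell means and 5 without deep cells. Of 40 shares of cells with a UMI, 36 did so without thinning. Depth limits SRXN1 in both lines and AIFM2, GCLM and GCLC in A375, and intervals take in neither culture nor capture variation.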

Other observations

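Single genes of selenium supply and membrane lipids, which bear on how GPX4 is made and what it protects, passed 2-fold. For the selenoprotein list the share of such genes was near that of all genes. The selenoprotein P receptor LRP8, which brings selenium into cells, had 11.7 CPM at 4 µM, against 61.2 CPM in untreated A375 cells, 5.25-fold lower (4.23 to 6.58), and 13.2 CPM in persisters, against 72.2 CPM in untreated PC9 cells, 5.45-fold lower (4.23 to 7.14). SELENOM, a selenoprotein of the endoplasmic reticulum, was 3.61-fold higher at 4 µM in A375, 2.25-fold higher at 1.2 µM and 3.84-fold higher in PC9 persisters. Of this list 1 gene of 15 was higher and 1 lower at 4 µM in A375, where 14.5% of all genes passed in either direction, 1 of 14 was higher and none lower at 1.2 µM, against 9.87%, and 1 of 14 was higher and 2 lower in persisters, against 20.3%.

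Of the genes that promote ferroptosis or shape membrane lipids, SAT1, which acetylates polyamines for their breakdown, was 7.27-fold higher in persisters (6.69 to 7.89), with 515 CPM, against 70.9 CPM in untreated PC9 cells, and 2.48-fold higher at 4 µM in A375. It was 1 of 2 genes of 13 called higher in persisters, with CYB5R1, and the 1 of 12 at 4 µM, and none was lower. Of all genes, 20.3% passed in persisters and 14.5% at 4 µM in either direction. At 1.2 µM 2 of 13 were higher and 1 lower, against 9.87% of all genes. ALOX5, a lipoxygenase, was 5.89-fold lower at 1.2 µM. Among other defence genes, the iron exporter SLC40A1 was 8.55-fold higher in persisters (6.01 to 12.4), with 32.4 CPM, against 3.79 CPM in untreated cells. The phospholipid remodeller MBOAT2 was 2.98-fold lower in persisters and 4.11-fold lower at 1.2 µM, and the desaturase SCD, which makes monounsaturated fat, was 3.57-fold higher at 1.2 µM and 2.37-fold lower in persisters, with 4.28 CPM, against 10.1 CPM in untreated cells. In A375 at 4 µM the fatty acid ligase ACSL3 was 2.71-fold lower (2.55 to 2.88). Of this list 2 of 12 were lower and none higher at 4 µM, 4 of 15 higher and 1 lower at 1.2 µM, and 2 of 15 higher and 4 lower in persisters, against the same 14.5%, 9.87% and 20.3% of all genes. The calls of SELENOM at 1.2 µM and of SCD in persisters each changed under 1 of 6 settings, for SCD the authors' listed cells. The calls of SAT1, LRP8, SLC40A1, MBOAT2 and ACSL3 changed under none.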
